A study of Mus musculus with 6 samples.

Results

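Snora73, also called U17, is a small nucleolar RNA (snoRNA) of the H/ACA box class, and the family as named in the deposited files has 3 members: ENSMUSG00000064387_Snora73a and ENSMUSG00000065353_Snora73b on chromosome 4, and ENSMUSG00000064380_SNORA73 on chromosome 9. They are 3 of 25991 RNA names in the 4 libraries described here, and every line in which either fragment carried 1 of these names was used. The libraries were made by MARIO, in which RNAs are crosslinked to bound proteins inside the cell, fragmented, held on beads and ligated through a biotin-tagged linker, so that each read pair names a first fragment (RNA1) lying 5′ of the linker and a second fragment (RNA2) lying 3′ of it. ES-1 and ES-2 are 2 assays on undifferentiated embryonic stem (ES) cells, of the line E14 from strain 129/Ola. ES indirect is another library of that line, and MEF is from cultured embryonic fibroblasts of strain C57Bl/6. Cells for ES-1, ES-2 and MEF received ultraviolet light of 254 nm, whereas those for ES indirect received formaldehyde and EGS, which join protein to protein as well. By the labels RNA was first cut to about 1000 nt with RNase I for ES-1 and ES-2, to about 1000 nt by sonication for ES indirect, and to about 300 nt with RNase I for MEF, while the study's methods give a range that also reaches longer fragments for ES-1. To deplete ribosomal RNA, the GeneRead kit was used for MEF and ES-2, and duplex-specific nuclease for the remaining pair of libraries. ES-1 and ES indirect thus share the depletion and differ in crosslinker and cutting, whereas ES-2 and MEF share crosslinker and depletion and differ in the cells and the fragment size. The factors that differ between the libraries of such a pair cannot be told apart. The 2 brain samples of the series were not analysed here.

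H/ACA snoRNAs fold into a pair of hairpins joined by a single-stranded H box (ANANNA) and followed by an ACA box near the 3′ end, and most of them guide the conversion of uridine to pseudouridine in ribosomal RNA. U17 is an exception, since it is known for its part in cutting the precursor of the small subunit rRNA (18S) and not for guiding a modification. Its 3′ hairpin carries a pair of conserved motifs, m1 and m2, which are known to base-pair with 18S sequence during that processing. U17 has also been linked to cholesterol trafficking through its effect on the mRNA of Mgarp.

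The 3 copies are given whole because the results turn on where along the molecule a fragment ends and on how far the copies can be told apart. Snora73b lies at chr4:131908237-131908441 and Snora73a at chr4:131908690-131908894, both on the minus strand within the genes Rcc1 (chr4:131887834-131909520) and Snhg3 (chr4:131903929-131909601). SNORA73 lies at chr9:120038469-120038671 on the plus strand within Rpsa (chr9:120036884-120041487), which encodes a small subunit protein. Coordinates are of NCBIM37 (mm9), and capitals mark the bases that are not the same in all 3 copies.
Snora73a: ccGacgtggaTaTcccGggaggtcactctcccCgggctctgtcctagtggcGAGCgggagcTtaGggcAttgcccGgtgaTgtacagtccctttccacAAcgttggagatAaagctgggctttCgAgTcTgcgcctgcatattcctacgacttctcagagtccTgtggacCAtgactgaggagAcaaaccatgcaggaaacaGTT
Snora73b: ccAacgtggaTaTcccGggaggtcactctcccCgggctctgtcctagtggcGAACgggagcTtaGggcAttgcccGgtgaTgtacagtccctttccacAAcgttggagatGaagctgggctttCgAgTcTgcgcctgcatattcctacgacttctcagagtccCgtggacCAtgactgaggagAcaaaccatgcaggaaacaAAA
SNORA73: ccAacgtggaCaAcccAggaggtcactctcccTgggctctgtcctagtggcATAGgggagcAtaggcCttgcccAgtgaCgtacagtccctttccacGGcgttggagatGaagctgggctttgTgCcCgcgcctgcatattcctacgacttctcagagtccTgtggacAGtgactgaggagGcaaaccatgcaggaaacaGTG
Snora73a and Snora73b are 205 nt long and differ at 7 bases, at positions 3, 54, 111, 164, 203, 204 and 205 counted from the 5′ end (96.6% identity). SNORA73 is 203 nt long and is 87.8% identical to either.

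The 3′ hairpin of Snora73b (positions 113 to 205, chr4:131908237-131908329, minus strand) is shown with m1, m2 and the ACA box in capitals.
Snora73b, 3′ hairpin: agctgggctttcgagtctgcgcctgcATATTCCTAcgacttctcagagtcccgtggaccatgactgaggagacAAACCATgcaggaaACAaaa
The stretch before it (positions 71 to 112, chr4:131908330-131908371) is shown with capitals at positions 86 and 87, where many fragments met the linker, and at the H box.
Snora73b, around the H box: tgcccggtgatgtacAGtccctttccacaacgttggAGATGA
The motif m1 was searched as ATATTCCTA and m2 as AAACCAT on the strand of the snoRNA, and neither overlaps the other. Both stood in all 3 members at positions 139 to 147 and 186 to 192 of Snora73a and Snora73b, and 137 to 145 and 184 to 190 of SNORA73. Of 1016 annotated H/ACA genes not named SNORA73, 0 held the letters of m1 and 2 (0.197%) held those of m2. Of the 15 loci annotated under the name SNORA73 in all, 4 (26.7%) held both.

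The files held 114777 lines with a member in ES-1 (3.55% of 3230403), 19487 in ES-2 (1.48% of 1312314), 2717 in ES indirect (0.0823% of 3302146) and 4192 in MEF (0.883% of 474526). Lines with equal coordinates and strands of both fragments were counted as 1 read pair, since 61.7% of the member lines of ES indirect and 32.7% of those of ES-1 were such repeats, against 5.33% in ES-2 and 5.13% in MEF. In the order ES-1, ES-2, then ES indirect, then MEF, which is kept for every run of 4 values below, this left 77298, 18449, 1040 and 3977 distinct read pairs, which is 11.2%, 10.7%, 12.1% and 10.3% of all distinct read pairs with an H/ACA snoRNA. The share of the family among H/ACA read pairs was thus similar in the 4 libraries, while its share of all lines was not. In bulk libraries, fewer cells holding an RNA and less of it in each cell cannot be told apart. Of the ES-2 pairs, 0.569% had the coordinates of an ES-1 pair, as did 5.58% of the ES indirect pairs.

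Fragments named Snora73 were nearly all what their name says, with 99.7%, 99.4%, 99.6% and 97.7% matching the genome at the stated position. Their partners were less certain. Of partners not named ribosomal, 79.6%, 60.8%, 64.5% and 42.0% matched their stated position, 3.15%, 12.3%, 28.1% and 50.9% held a piece of the linker, and 19.2%, 28.0%, 10.5% and 10.6% consisted mostly of sequence also found in ribosomal fragments. MEF had a further fault that ES-1 and ES-2 showed little of: all 248 member read pairs of its second flow cell held the same sequence in both fragments, in 245 of them with 10 further bases in RNA2. None of the 193 of these that were joined to another name had a ribosomal partner (0 of 193, which allows a share of up to 1.55%). MEF values are given with and without such one-sequence pairs where they matter. ES cell markers were found in sense exons for 12 of 12 genes in each ES library and 7 of 12 in MEF (21 of 49466 exon ends in MEF, against 1979 of 323829 in ES-1, 433 of 166509 in ES-2 and 3463 of 580246 in ES indirect), with Pou5f1 and Nanog at 0 in MEF. Fibroblast markers were found for 12 of 12 genes in MEF (578 ends) and for 7 to 9 in the ES libraries (1145, 267 and 769 ends).

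The first question was which kinds of RNA Snora73 was joined to. Ribosomal RNA was the most frequent kind in every library. It made up 70.9% of the ES-1 read pairs with another RNA (95% Wilson interval 70.6 to 71.3, n = 74730 pairs) and 63.2% of those of ES-2 (62.5 to 63.9, n = 17946), or 67.1% ± 5.49 (SD, n = 2) for ES. It made up 49.2% in ES indirect (45.5 to 52.8, n = 714) and 32.2% in MEF (30.7 to 33.7, n = 3838), or 33.9% in MEF without the second flow cell. The intervals cover counting error only. ES indirect and MEF lay below both ES libraries, by more than ES-1 and ES-2 differed from each other, with 1 library each and so no test. The size of the gap depended on the fragments kept: with fragments of at least 20 nt and no linker piece the share was 72.6% for ES, 60.5% for ES indirect and 58.3% for MEF, and where sequences match their position MEF had 52.7%. All other H/ACA snoRNAs combined showed ribosomal shares of 67.0%, 58.7%, 43.6% and 31.6% in the same order, so the order of the libraries was not particular to Snora73.

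The remaining partners were spread over small RNAs, mRNAs, introns, repeats and unannotated sequence. Other H/ACA snoRNAs made up 6.57% ± 2.28 (SD, n = 2) of the ES pairs, 1.96% in ES indirect and 8.29% in MEF. C/D box snoRNAs and Cajal body RNAs, which guide methylation or modify spliceosomal RNAs, made up 2.23% ± 0.751 in ES, 2.1% in ES indirect and 0.469% in MEF. Exons of protein-coding genes were at similar levels in all 4 libraries, from 4.11% to 6.44%. Introns were more frequent in ES indirect (17.6%) and MEF (22.3%) than in ES-1 and ES-2 (4.25% and 8.43%), and ES indirect and MEF are also the libraries with the most linker pieces among partners. Whether these linker pieces account for the difference was not tested. Repeats made up 2.87% to 13.2% and unannotated sequence 4.99% to 17.3%, in the same order of libraries. All other H/ACA snoRNAs combined had introns at 4.86%, 9.49%, 20.9% and 21.9%. From ES-1 to MEF their repeats went from 3.21% to 14.2% and their unannotated sequence from 5.41% to 16.9%. These patterns were thus not particular to Snora73. Other loci named SNORA73 made up 0.242%, 0.0947%, 1.96% and 0.547%, and sequence shared with the members can place a fragment there.

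**Figure D1:**
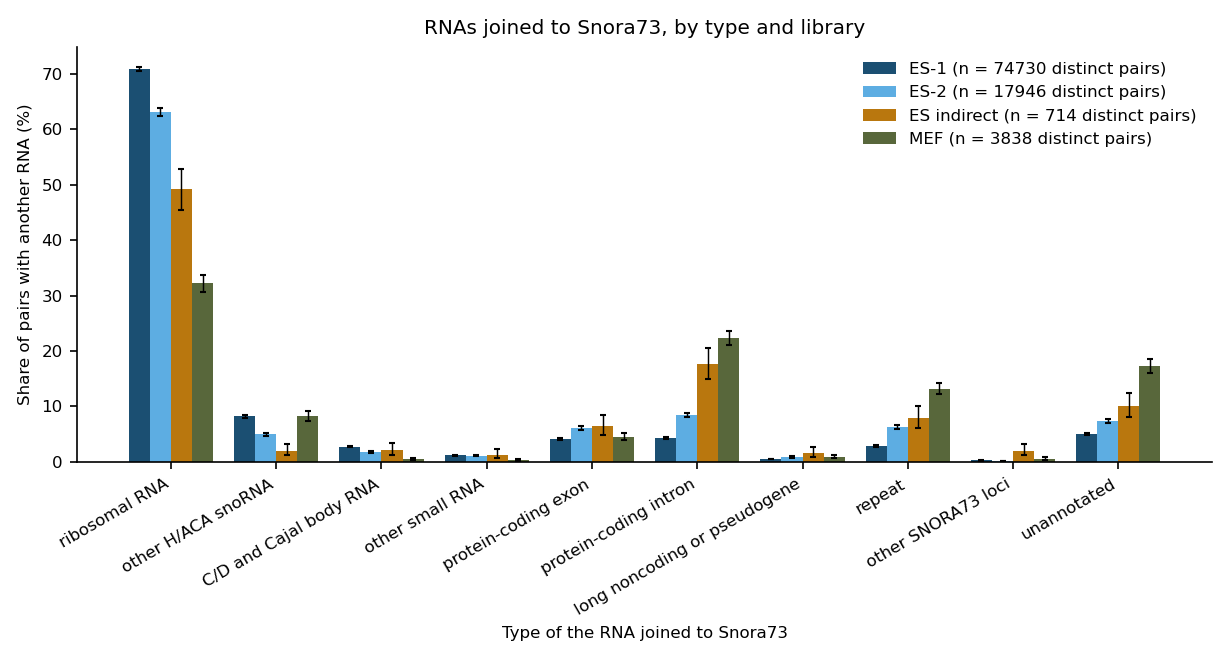
Share of distinct read pairs joining Snora73 to another RNA (vertical axis, percent) by the type of that RNA (horizontal axis) in the 4 libraries. Bars are shares and error bars 95% Wilson intervals, and ribosomal RNA is the tallest class in each library, falling from 70.9% in ES-1 to 32.2% in MEF, where introns reach 22.3%.

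Since U17 acts in making the small subunit, the ribosomal partners were divided by subunit. Small subunit rRNA made up 32.5% of the small and large subunit pairs of Snora73 in ES-1 (32.1 to 32.9) and 29.7% in ES-2 (28.8 to 30.5). It made up 49.7% in ES indirect (44.1 to 55.2) and 14.3% in MEF (12.4 to 16.4). Large subunit rRNA was thus joined to Snora73 more often than small subunit rRNA in all but ES indirect, where both were equally frequent (154 against 156 pairs). The same share for all other H/ACA snoRNAs was 30.1%, 27.3%, 39.0% and 12.6%. The difference was small but larger than counting error in 3 libraries by a two-sided Fisher's exact test with Benjamini-Hochberg adjustment: the log2 odds ratio was 0.16 ± 0.01 (SE) for ES-1 (adjusted exact p = 8.86e-28), 0.17 ± 0.03 for ES-2 (adjusted exact p = 3.75e-07) and 0.63 ± 0.17 for ES indirect (adjusted exact p = 4.82e-04). It was 0.21 ± 0.13 for MEF (adjusted exact p = 0.1). All such p-values take the read pair as the unit and so describe each library, while ES-1 against ES-2 is the only measure of the spread between assays. Other families had higher shares, with Snora73 at ranks 9 of 72 families, 24 of 69, 2 of 18 and 16 of 51.

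Within 18S rRNA, some windows held a higher or lower share of the Snora73 fragments than of those of the other H/ACA snoRNAs. The 18S fragments were placed by sequence on the 18S gene at chr17:39983297-39985146 (1850 nt), and 94.7%, 85.6%, 93.5% and 91.8% of small subunit partners found a place there, of which at least 99.4% lay on the rRNA strand. The gene was divided into 19 windows of 100 nt, the last one shorter, and Snora73 was compared with all other H/ACA snoRNAs in each window and library by a two-sided Fisher's exact test, adjusted over all 76 tests. This comparison was chosen after seeing the data. Of the 76 tests, 23 (30.3%) passed an adjusted p of 0.05, 8 with Snora73 higher and 15 with it lower, and 13 passed with near duplicates counted as 1 (8 higher and 5 lower).

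Bases 401 to 500 of 18S held more Snora73 fragments than those of other H/ACA snoRNAs in the 3 ES libraries. This window held 13.5% of the Snora73 fragments in ES-1 (13 to 14, n = 16142) against 7.69%, with adjusted exact p = 3.39e-119. In ES-2 it held 14.7% (13.5 to 16.1, n = 2851) against 7.98% (adjusted exact p = 1.20e-27), and in ES indirect 24.3% (18 to 31.9, n = 144) against 11% (adjusted exact p = 2.29e-04). The excess was therefore seen after both kinds of crosslinking, though some other families had a larger share here, with Snora73 at rank 6 of 70 in ES-1 and 7 of 58 in ES-2. In MEF the window held 15.3% against 11.4% (n = 157, adjusted exact p = 0.417). With near duplicates counted as 1, the log2 odds ratio went from 0.91 to 0.56 in ES-1, from 0.99 to 0.72 in ES-2 and from 1.39 to 1.34 in ES indirect, where the call held (adjusted exact p = 0.00115). In ES indirect the second flow cell alone gave a log2 odds ratio of 0.92 with adjusted exact p = 0.195.

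Bases 101 to 200 were the other window in which Snora73 was higher by the test in both ES-1 and ES-2. They held 12.9% of the Snora73 fragments in ES-1 against 7.61% (adjusted exact p = 5.23e-100, rank 2 of 70 families) and 6.14% in ES-2 against 4.17% (adjusted exact p = 2.83e-05, rank 12 of 58). In ES indirect the values were 9.03% and 7.72%, and in MEF 5.73% and 5.13%, neither of which passed the test. With near duplicates counted as 1, the log2 odds ratio went from 0.84 to 0.36 in ES-1 (adjusted exact p = 1.76e-10) and from 0.59 to 0.40 in ES-2 (adjusted exact p = 0.0334). The level in this window was lower in ES-2 than in ES-1 for Snora73 and for the other H/ACA snoRNAs. Windows with fewer Snora73 fragments by the test in both ES-1 and ES-2 were bases 301 to 400 (0.935% against 1.27%, then 2.31% against 3.38%), bases 601 to 700 (3.90% against 6.10%, then 4.52% against 9.40%), and bases 1201 to 1300 and 1301 to 1400. Bases 301 to 400 went the other way in ES indirect (4.86% against 2.40%) and MEF (4.46% against 1.57%). Bases 1201 to 1300 did so in MEF (10.2% against 7.11%). None of these opposite values passed the test.

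The joined ends of these fragments were frequent at a few bases, which are shown in capitals in the sequence around them. In the first stretch the capitals are bases 100 to 104 of 18S (chr17:39983387-39983416 for the whole stretch, plus strand, bases 91 to 120). In the second they are bases 456 to 458 and base 496 (chr17:39983742-39983801, bases 446 to 505).
18S, bases 91 to 120: gaatggctcATTAAatcagttatggttcct
18S, bases 446 to 505: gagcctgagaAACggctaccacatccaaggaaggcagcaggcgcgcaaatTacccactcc
At the start of 18S, base 2 was the most frequent joined end of Snora73 pairs in ES-1 and ES-2 (1.61% and 2.08%, against 1.31% and 1.72% for other H/ACA snoRNAs). Base 104 was the joined end of 1.54% of Snora73 fragments in ES-1 against 0.407% of those of other H/ACA snoRNAs, and of 1.02% against 0.143% in ES-2. Base 456 was that of 0.973% against 0.530% in ES-1 and 1.59% against 0.693% in ES-2. Base 496 was the most frequent in ES indirect, with 10 of 144 fragments (6.94%) against 2.72%. These bases were picked for their height, so no test is given.

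The known pairing partner of m1 was looked for as the 8 letters TAGGAATA, which stand at 1 place of the 18S gene, bases 865 to 872. They are in capitals below (bases 856 to 885, chr17:39984152-39984181, plus strand).
18S, bases 856 to 885: taccgcagcTAGGAATAatggaataggacc
The window of bases 801 to 900 that holds them was not a place of many Snora73 fragments. It held 4.86% of them in ES-1 against 5.38% for other H/ACA snoRNAs (adjusted exact p = 0.019). The further values were 2.46% against 2.43% for ES-2, 6.94% against 6.78% for ES indirect and 1.91% against 6.29% for MEF (adjusted exact p = 0.0798). By copy, ES-1 had 5.66% for Snora73a, 4.05% for Snora73b and 4.84% for SNORA73. Snora73a was also above Snora73b in ES-2 (3.10% against 2.33%) and MEF (2.86% against 1.54%), but below it in ES indirect (4.76% against 10.4%). The copies were not tested against each other here. The window tells which part of 18S was joined and not which bases were paired.

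**Figure D2:**
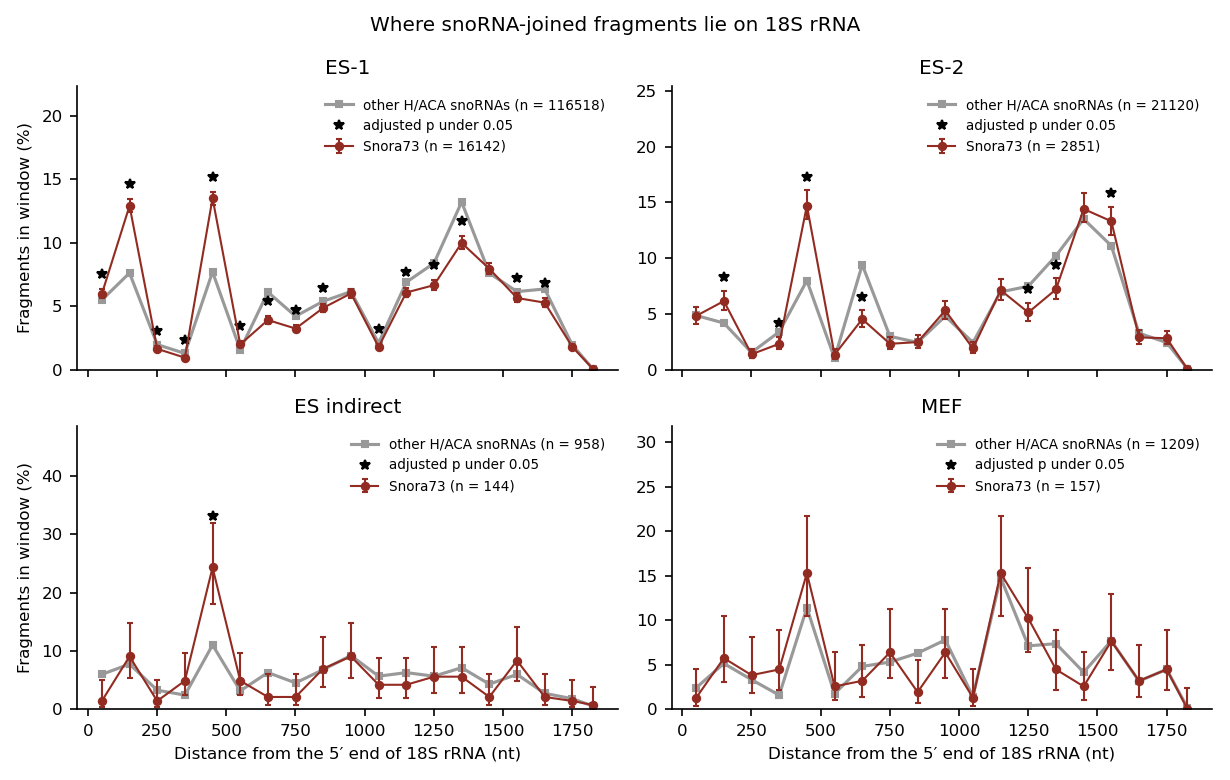
Share of 18S fragments joined to Snora73 (circles, with 95% Wilson intervals) and to all other H/ACA snoRNAs (squares) in windows of 100 nt along 18S rRNA (horizontal axis, nt from its 5′ end; vertical axis, percent), 1 panel a library. Stars mark windows past an adjusted p of 0.05, and the window of bases 401 to 500 stands above the squares in ES-1 (13.5% against 7.69%), ES-2 and ES indirect.

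The next comparison asked which part of Snora73 was joined to other RNAs and which part to Snora73 itself. The joined end was taken as the 3′ end of the fragment where Snora73 was RNA1 and as its 5′ start where it was RNA2, in Snora73a and Snora73b fragments on the snoRNA strand. The snoRNA came first in 84.5% of the ES-1 pairs with another RNA, but in 46.5% in ES indirect and 40.2% in MEF. As RNA1 it was mostly joined through its own 3′ terminus. Ends at position 200 or beyond made up 58.7% in ES-1 (58.3 to 59.2, n = 56016) and 67.4% in ES-2 (66.6 to 68.2, n = 12509). They made up 36.8% in ES indirect (31.2 to 42.9, n = 258) and 23.7% in MEF (21.3 to 26.3, n = 1093). Position 206, which is 1 base past the annotated end, alone took 22417 of 56016 ends in ES-1 and 50.6% in ES-2.

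Inside the molecule, ends clustered at positions 80 to 92, in the stretch before the H box that is shown in capitals above at 86 and 87. They made up 16.1%, 19.0%, 9.69% and 17.7% of the RNA1 ends. A further cluster lay around m1, at positions 138 to 150, with 4.41%, 4.30%, 8.91% and 19.2%. Among RNA1 ends, MEF had the largest share at m1 and the smallest at the 3′ terminus. Its RNA had been cut shortest and its cells differ too, and the part of either was not tested. For RNA2 the starts around m1 made up 3.37%, 9.43%, 2.84% and 4.17%. As RNA2, Snora73 was joined through its 5′ terminus (positions up to 5) in 44.9%, 45.0%, 31.6% and 42.3%, and through positions 80 to 92 in 30.4%, 25.9%, 16% and 18.9%. In ES-1 the 3′ terminus gave 59.2% of the RNA1 ends joined to small subunit rRNA, 58.1% of those to large subunit rRNA, 53.4% to other H/ACA snoRNAs, 58.1% to mRNA exons and 65.7% to introns. The 3′ terminus was thus the leading place for each of these classes in ES-1. In MEF the shares around m1 and at the terminus were 22.6% and 21.9% for introns, and 21.9% each for exons. They were 18.1% and 22.3% for small subunit rRNA, 16.2% and 23.3% for large subunit rRNA, and 17.3% and 28.6% for other H/ACA snoRNAs.

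As positions are counted here, ends inside the molecule lay at bases left unpaired in the predicted fold more often than such bases occur. The minimum free energy fold of Snora73b (RNAfold, -72.9 kcal/mol) left 81 of 205 bases unpaired, and 75 of the 194 from position 6 to 199 (38.7%). Of the Snora73b ends joined to another RNA within that range, 54.5%, 68.5%, 54.8% and 54.6% of the RNA1 ends were at an unpaired base, and 64.1%, 74.8%, 54.5% and 63.6% of the RNA2 ends. The part of the way the RNA was cut in these shares was not tested. The ends fall on few positions, so these shares are a description without a test. Position 86 alone took 10.3% of all RNA1 ends joined to another RNA in ES-1, the terminus included. It is unpaired in this fold and position 85 is paired, so a shift of 1 base would change these shares.

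**Figure D3:**
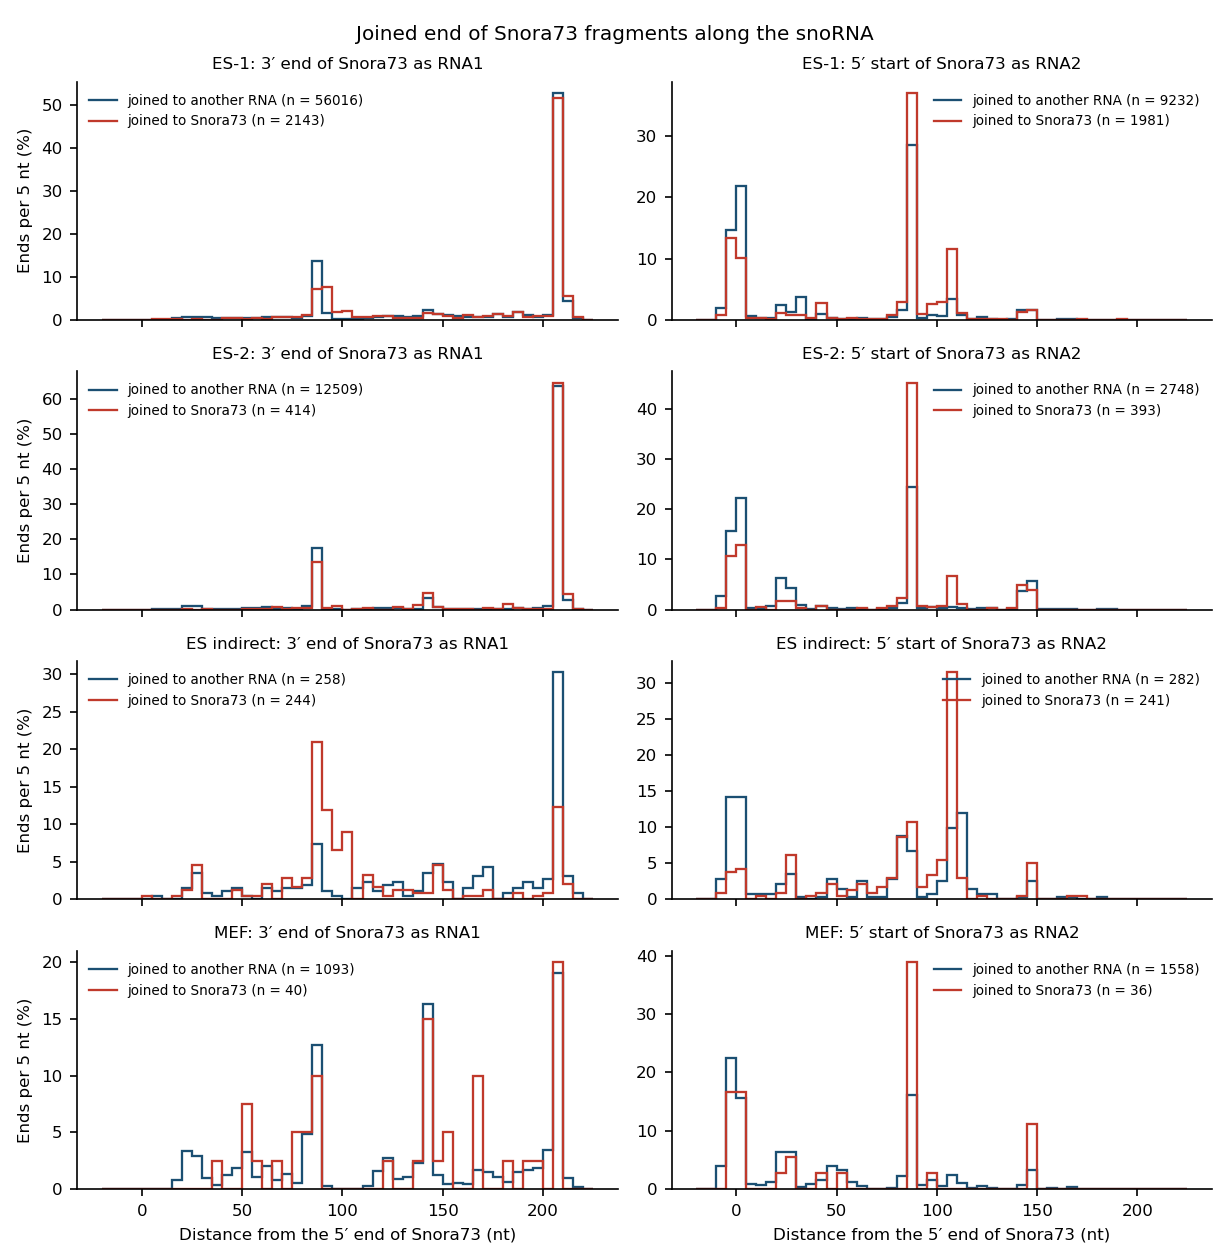
Position of the joined end along Snora73 (horizontal axis, nt from the 5′ end; vertical axis, percent of ends per 5 nt) where Snora73 was RNA1 (left) or RNA2 (right), for pairs with another RNA (blue) and with Snora73 (red), 1 row a library. Ends of RNA1 pile up at the 3′ terminus and near position 86 in ES-1 and ES-2, and RNA2 starts near 106 stand out for self-joined pairs in ES indirect (38.6% at 100 to 110 against 17%).

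Pairs that joined Snora73 to Snora73 made up 3.32% of its distinct read pairs in ES-1 (3.2 to 3.45) and 2.73% in ES-2 (2.5 to 2.97). They made up 31.3% in ES indirect (28.6 to 34.2) and 3.5% in MEF (2.97 to 4.11), so ES indirect stood apart. Of the 139 self-joined pairs of MEF, 45 held different sequences in their fragments, and without the others the share was 1.22%. The other H/ACA families with at least 50 pairs had medians of 3.13%, 3.04%, 12.7% and 2.42%, so that Snora73 was at ranks 34 of 72, 37 of 69, 2 of 46 and 20 of 66. In ES indirect only SNORA57 was higher (34.9%). The value there depends on how repeats are counted, with 68.0% over all lines and 21.5% with near duplicates counted as 1, and it was 39.7% on the first flow cell and 20.7% on the second.

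Self-joined pairs used the same places of the molecule as other pairs but in other proportions. As RNA2, Snora73 joined to itself started at positions 80 to 92 in 40.6% of the ES-1 and 48.1% of the ES-2 pairs, against 30.4% and 25.9% for other partners. It started at its 5′ terminus in 27.0% and 25.7%, against 44.9% and 45.0%. Starts at 100 to 110, next to the H box, made up 15.1% in ES-1 and 38.6% in ES indirect, against 4.31% and 17%. In ES indirect the RNA1 ends also differed, with 15.2% at the 3′ terminus (against 36.8%) and 28.3% at positions 80 to 92 (against 9.69%).

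The test of these positions divided the snoRNA at its middle into a 5′ and a 3′ part, by two-sided Fisher's exact test adjusted over 8 comparisons. For RNA2 the self-joined ends lay more in the 3′ part in ES-1 (18.5% against 10.1%, log2 odds ratio 1.01 ± 0.09, adjusted exact p = 5.08e-29), in ES-2 (19.3% against 13.5%, 0.62 ± 0.18, adjusted exact p = 0.00108) and in ES indirect (44.8% against 31.9%, 0.79 ± 0.23, adjusted exact p = 9.45e-04). MEF had 15.8% against 10.4% (0.72 ± 0.35, adjusted exact p = 0.0739), or 11.1% (5 of 45) without one-sequence pairs (0.30, adjusted exact p = 0.914), and on its first flow cell alone the value turned to -0.19 (adjusted exact p = 0.851). With near duplicates counted as 1, only ES-1 still passed for RNA2 (log2 odds ratio 0.59, adjusted exact p = 1.89e-05). Divided at the H box instead of the middle, the RNA2 value turned to -0.05 in ES-2 and to -0.61 in ES indirect (adjusted exact p = 0.0376), a division that puts position 106 in the 5′ part. For RNA1 the self-joined ends lay more in the 5′ part in ES indirect (34.4% against 74.1% in the 3′ part, log2 odds ratio -2.44 ± 0.25, adjusted exact p = 2.33e-24), and this held with near duplicates counted as 1 (-1.81, adjusted exact p = 2.48e-10). The RNA1 difference in ES-1 was small (-0.23 ± 0.07, adjusted exact p = 0.00108) and turned to 0.04 with near duplicates counted as 1. In ES-2 it was 0.16 ± 0.16 (adjusted exact p = 0.339). In MEF the value of -1.61 ± 0.26 (adjusted exact p = 1.28e-09) rested on the one-sequence pairs, without which it was 0.05.

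Each self-joined pair was also read as a joint from the end of RNA1 to the start of RNA2, leaving out one-sequence pairs. Joints in which RNA2 lay wholly 5′ of RNA1, as when the 3′ end of a molecule is ligated to a 5′ cut end, made up 68.2% of 1898 in ES-1 and 86.1% of 374 in ES-2. In ES indirect they made up 17.4% of 241, and joints in the order of the molecule made up 58.9%, of which 129 of 142 left out at most 20 nt. MEF had 15 of 32 in reverse order (46.9%). The most frequent joint led from position 206 to position 86, with 279 pairs (14.7%) in ES-1, 62 (16.6%) in ES-2 and 3 in MEF. Joints from the 3′ terminus to positions 80 to 92 made up 36.6% in ES-1, 42.8% in ES-2 and 4.15% in ES indirect. Those from the 3′ to the 5′ terminus made up 17.5%, 12.3% and 5.39%. In ES indirect the leading joints were instead 86 to 86 (11 pairs), 25 to 25 (8) and 147 to 147 (7). In these joints RNA2 starts at the base where RNA1 ends, so as positions are counted here the fragments share that base. They thus lie within 1 base of how neighbouring pieces of an uncut molecule would lie. Joints in the order of the molecule whose positions differed by at most 1 made up 35 of 241 (14.5%) in ES indirect and 1.69% in ES-1, and whether they join different places of the snoRNA cannot be told.

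A joint within 1 molecule cannot be told from a joint of a pair of molecules of the same copy, but a joint of different copies must come from different molecules. Of self-joined pairs in which both fragments matched 1 copy better than the others, 26.6% joined different copies in ES-1 (551 of 2075) and 20.6% in ES-2 (71 of 344). In ES indirect 1.38% did (4 of 290), and in MEF 53.8% (21 of 39). Pairs of different copies were thus a large part of the self-joined pairs in ES-1, ES-2 and MEF and few in ES indirect. ES indirect differs from them in both crosslinker and cutting, which cannot be told apart, and is 1 library, so there is no test.

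**Figure D4:**
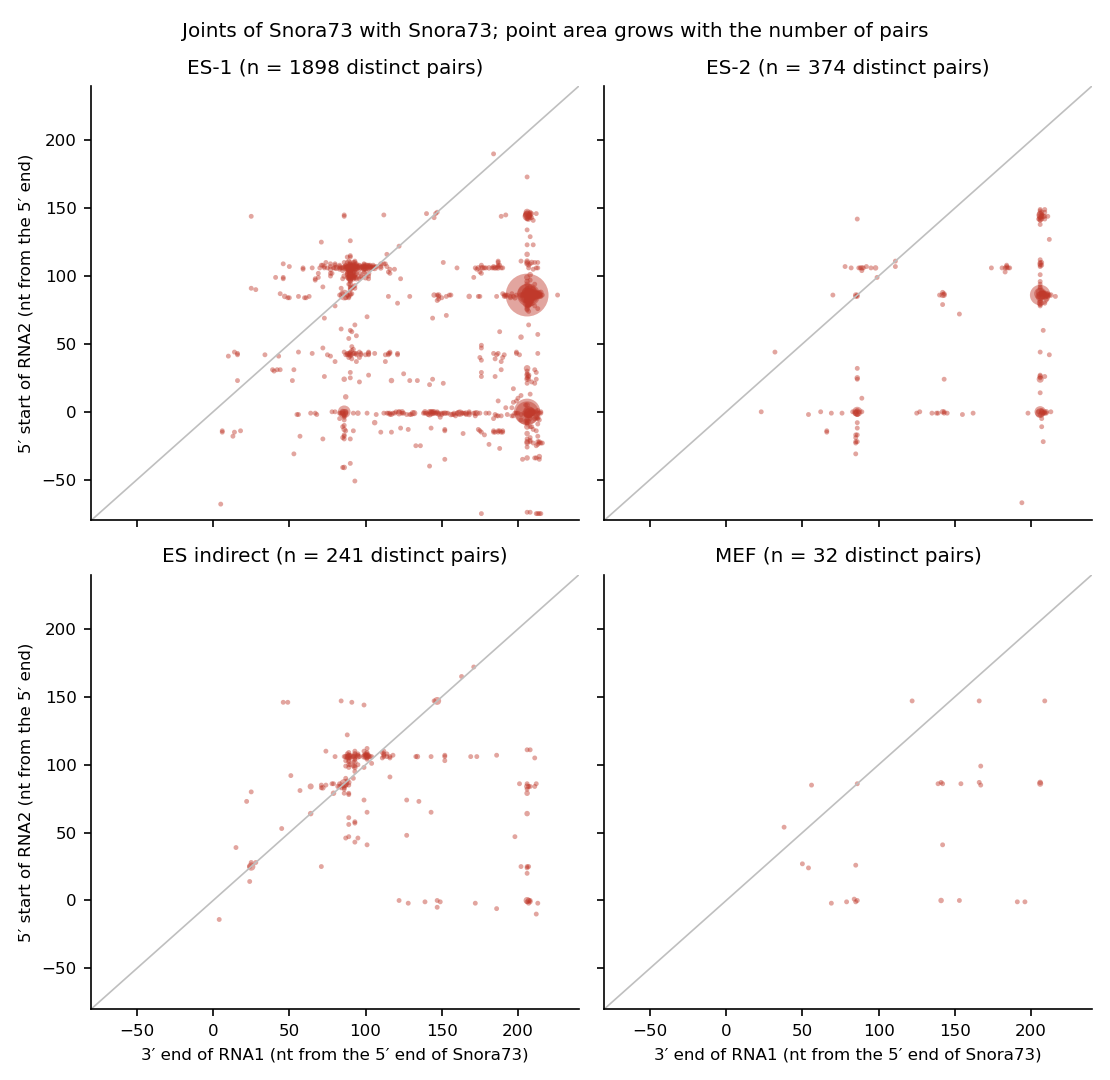
Joints of Snora73 with Snora73, with the 3′ end of RNA1 on the horizontal and the 5′ start of RNA2 on the vertical axis (nt from the 5′ end of the snoRNA), 1 panel a library, point area growing with the number of pairs. Points below the grey diagonal join a later position to an earlier one. RNA2 lay wholly 5′ of RNA1 in 68.2% of the ES-1 and 86.1% of the ES-2 pairs, with the largest point at 206 to 86, while many ES indirect points lie near the diagonal.

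Among small RNAs, the most frequent partners over the 4 libraries were other H/ACA snoRNAs and spliceosomal RNAs. Snora81 had 503 distinct pairs in ES-1, 80 in ES-2 and 18 in MEF. Snora16a had 225, 60 and 10, and Snora44 had 229, 41 and 14. In ES indirect each of these had 0 of 714 pairs, which allows a share of up to 0.420%. A second locus named SNORA81 had 261 pairs over all 4 libraries, Snora33 255, SNORA9 237, SNORA57 204 and SNORA63 199. The spliceosomal RNAs U1 and U2 had 222 and 171, of which 3 and 2 in ES indirect. Since frequent RNAs are joined often by number alone, each pair of RNAs was tested.

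The test was Fisher's exact test of each pair of RNAs among read pairs between annotated, non-ribosomal RNAs, with Benjamini-Hochberg adjustment over every pair seen, called at an adjusted p under 0.05. The study's methods name this test and adjustment, whereas the one-sided form, the counting of lines with equal coordinates as 1 and the minimum of 3 distinct read pairs were chosen here. Over every line the called partners number 489 in place of 58 in ES-1 and 438 in place of 62 with ES-1 and ES-2 merged. It called 59 of 5944 pairs of a member with an RNA in ES-1 (0.993%, against 1.09% of all pairs tested there), 27 of 2856 in ES-2 (0.945% against 0.718%), 4 of 247 in ES indirect (1.62% against 2.52%) and 14 of 1088 in MEF (1.29% against 0.842%). With ES-1 and ES-2 merged it called 64 of 7501 (0.853% against 0.894%). The share of Snora73 pairs was thus below that of all pairs in ES-1, ES indirect and the merged libraries and above it in ES-2 and MEF, and the differences were not tested. The count a pair is tested against is the product of the ends of both RNAs divided by the number of read pairs, which is above what random joining of all ends would give. Counts under the predicted one are therefore not read as a shortage.

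The called pairs came to 107 partners over all libraries. Of these, 7 were members or other loci named SNORA73 and 14 were other small RNAs. Of the remaining partners, 31 (29.0% of all) had mostly fragments that passed the sequence criteria (at least 20 nt, at the stated position, with no linker piece and not like ribosomal, small or Snora73 RNA), 29 had mostly fragments like ribosomal RNA, 6 mostly linker pieces, 10 mostly fragments off their position, and 10 were mixed. Called in at least 2 libraries were 9 partners: Snora73a, Snora73b, 3 other loci named SNORA73 (ENSMUSG00000065158, ENSMUSG00000065328 and ENSMUSG00000089531), Snora16a, and 2210011C24Rik, Arhgap10 and Gm11202. The fragments of the last 3 were mostly like ribosomal RNA, so of the 9 only Snora16a was an RNA outside the family whose fragments were not mostly like ribosomal RNA.

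By the names in the files, copies of the family were joined to each other above prediction. In ES-1, 2.27% of the Snora73a, 0.900% of the Snora73b and 1.85% of the SNORA73 fragments matched another copy better. The part of such fragments in the counts below was not tested. SNORA73 of chromosome 9 was joined to Snora73a in 180, 30, 2 and 6 pairs. In ES merged this was 210 pairs against 98.1 predicted (adjusted exact p = 1.48e-20), and random joining would give 49.0. With Snora73b it had 158, 29, 1 and 8 pairs, and 187 in ES merged against 101 predicted (adjusted exact p = 4.84e-12). Snora73a and Snora73b lie within 2 kb of each other and were treated as 1 place, so their own pair was not tested.

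Snora16a, another H/ACA snoRNA, was joined to Snora73a in 130 pairs in ES-1 (93.4 predicted, adjusted exact p = 0.00564), 31 in ES-2 (12 predicted, adjusted exact p = 9.53e-04), 0 in ES indirect and 5 in MEF (2.08 predicted, adjusted exact p = 0.104). ES merged gave 161 against 95.4 (adjusted exact p = 1.69e-07), or 0.0585 with near duplicates counted as 1. With Snora73b there were 87 against 98.5 (adjusted exact p = 0.962) and with SNORA73 37 against 35.9, and the difference between the copies was not tested. The Snora16a fragments had 171 different spans among 285 pairs of ES-1 and ES-2. Snora16a lies 42.7 kb from Snora73b on chromosome 4 (chr4:131865380-131865515) in the gene Snhg12, next to Snora44 and Snora61. Snora61 was called with Snora73b in ES merged only (70 against 45.2 predicted, adjusted exact p = 0.00975, or 0.272 with near duplicates counted as 1), and Snora44 was not called with any copy (110 pairs with Snora73a in ES merged, where random joining would give 107). The part of closeness on the chromosome in these values was not tested.

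In MEF the called small RNAs were mostly supported by few pairs: Snora68 with Snora73b had 10 pairs against 2.39 predicted (adjusted exact p = 0.00529), Snora33 with Snora73b 9 against 3.65 (adjusted exact p = 0.0339), SNORA63 with Snora73a 6 against 2.11 (adjusted exact p = 0.0483) and SNORA72 with Snora73b 6 against 2.08 (adjusted exact p = 0.0462). SNORA53 and Snora70 had 3 pairs each. All of these were joined to Snora73 in ES-1 too, with 12 to 104 pairs, and were not called there. The MEF calls also depended on the fragments kept, since its 13 called partners fell to 4 with fragments of at least 20 nt and no linker piece, and to 4 where sequences match their position. The called partners of ES indirect included ENSMUSG00000089531_SNORA73, Agap1 and the LINE family Lx2.

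Most other called partners with many pairs did not carry their own sequence. Arhgap10 had 21 pairs with Snora73b in ES merged against 4.97 predicted (adjusted exact p = 1.53e-05), but 35 of its 36 fragments over all libraries were like ribosomal RNA. Agap1, with 31 pairs with Snora73a in MEF and 8 in ES indirect, had linker pieces in 95 of 105 fragments. All fragments of 2210011C24Rik (25), Cntrob (12), Ano2 (9), Gm11202 (9) and the repeat HERV16-int (10) with the called copy were like ribosomal RNA, and 23 of 24 fragments of Btbd9 and 8 of 8 of Kalrn held linker pieces. Each of the 31 partners with their own sequence was called on 3 to 5 pairs. Sall4, a transcription factor of ES cells, had 5 with Snora73a in ES merged against 1.1 predicted (adjusted exact p = 0.0310). Hps4 had 5 against 0.418 (adjusted exact p = 0.00458) and Pecam1 5 against 1.13 (adjusted exact p = 0.0334), both in ES merged with all pairs from ES-1. Wdr75, a factor of small subunit processing, had 4 pairs over all copies, of which the 3 in ES-1 were sense exonic and the 1 in ES-2 was not. With Snora73a it had 3 against 0.183 (adjusted exact p = 0.0121), 2 in ES-1 and 1 in ES-2. It was called in ES merged only and in neither library alone, where the adjusted exact p was 0.0744 without ES-1 and 0.0482, on fewer than 3 pairs, without ES-2.

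The mRNAs joined to Snora73 were then counted across libraries. By the names in the files, 4521 protein-coding genes were joined to a member, 1001 of them in at least 2 libraries and 14 in all 4. Many of these names did not stand for an mRNA. Of the 14 in all libraries, Agap1 (105 pairs) and Fhit (103) were mostly linker pieces (95 and 97 of the fragments), and Cntnap5b (42) and Arhgap10 (36) mostly like ribosomal RNA (40 and 35), as was Dnahc7b in 3 libraries (434 of 434 fragments). Fragments in introns lay on the gene's strand in 47.6%, 50.7%, 58.5% and 54.6%, which is near an even split, whereas those in exons did so in 86.4%, 70.0%, 91.3% and 66.3%. After leaving out fragments under 20 nt, off position, with linker pieces or like other RNAs, exonic fragments were on the gene's strand in 98.9%, 98.1%, 97.0% and 94.7%.

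By sense exonic fragments that passed these criteria, 1644 mRNAs were joined to Snora73 and 148 of them in at least 2 libraries, 140 in 2 and 8 in 3. This number rested on ES-1 and ES-2, since it fell to 11 without ES-1 and to 22 without ES-2, and was 135 without ES indirect and 144 without MEF. All 1644 mRNAs together rest on 2122, 371, 32 and 36 fragments. The 8 seen in 3 libraries were Eef2, Fn1, Slc2a3, Hspa9, Trim28, Ankfy1, Dync1h1 and Fzd5. Eef2, the translation elongation factor that moves the ribosome along, had 19, 3, 0 and 1 pairs. Fn1, which encodes fibronectin, had 6, 3, 0 and 2. Slc2a3, a glucose transporter, had 5, 1, 1 and 0. Hspa9 (mitochondrial chaperone) and Trim28 (chromatin corepressor) had 5 pairs each, and Ankfy1, Dync1h1 and Fzd5 had 3 each, 1 in every library that held them.

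Among the mRNAs seen in 2 libraries, Snrpb, Eef1a1 and Hsp90ab1 had the most pairs. Snrpb, which encodes a core spliceosomal protein, had 27 pairs, 26 of them in ES-1, all in its 3′ untranslated region and at 19 different coordinates. Eef1a1 and Hsp90ab1, an elongation factor and a chaperone, had 15 each. Atp5b, Hcfc1 and Huwe1 had 8 each, and Gnb2l1, Hsp90aa1, Sall4 and Slc2a1 had 7 each. Of the mRNAs named in this and the preceding paragraph, Sall4 was a called partner. Other mRNAs seen in 2 libraries were called too, among them Atp13a2, Zkscan17 and Med25, each on 3 pairs with 1 copy. Eef2, with 23 pairs in ES merged including those that failed the criteria, had 31.9 predicted and 15.9 by random joining (lowest adjusted p of the copies 0.894), and Fn1 had 11, 18.8 and 9.38. Neither mRNA was called. The test compares a count with its prediction and does not ask about recurrence across libraries.

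The next shares cover every mRNA with a sense exonic fragment that passed the criteria, not only the mRNAs seen in several libraries. The snoRNA was RNA1 in 90.9% (89.6 to 92) and 90.0% (86.6 to 92.7) of these ES-1 and ES-2 pairs, where all partners of ES-1 gave 84.5%. The RNA1 end was at the 3′ terminus in 54.3%, 64.9%, 57.1% (of 14 ends) and 13.3% (of 15), where all partners gave 58.7%, 67.4%, 36.8% and 23.7%. These differences from all partners were not tested. On the mRNA, 60.5% and 60.9% of the fragments lay in coding or other exons, 31.7% and 26.1% in 3′ and 7.82% and 12.9% in 5′ untranslated exons. ES indirect and MEF, with 32 and 36 fragments, each had 8 in 5′ untranslated exons.

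Genes of the pathway were looked at as lists. Of all 22215 protein-coding genes of the annotation, 20.2% were joined to Snora73 by name and 7.39% by a fragment that passed the criteria. Of 20 factors of small subunit processing, 7 were joined to Snora73, each with a fragment that passed the criteria: Ncl (nucleolin) in 6 pairs, Wdr75 in 4, Npm1 (nucleophosmin) and Heatr1 in 3, Nol6 in 2, and Nop56 and Mphosph10 in 1. Ncl and Wdr75 were seen in both ES-1 and ES-2, though the ES-2 fragment of Wdr75 was not a sense exonic one. Of the 7, 1 was called, Wdr75, in ES merged only. The levels of these mRNAs were not measured here, and nothing particular to the list is read from its count. Of the 6 H/ACA protein genes found in the annotation (of 9 names listed, older symbols included), 1 was joined (Shq1, an assembly factor, by 1 pair that failed the criteria). Of the host genes, Snhg3 was joined to Snora73 in 4 pairs, Rcc1 in 2 and Rpsa in 1, and of the hosts of other snoRNAs Eif4a2 in 1. Gm17300, which lies on the opposite strand of the chromosome 4 copies, was named in 19 pairs.

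The copies were compared last. Snora73a and Snora73b held 43.8% and 43.5% of the member fragments in ES-1 and 42.4% and 43.1% in ES-2. They held 47% and 29.4% in ES indirect and 37.3% and 35% in MEF, the rest being SNORA73. The names are well supported in the ES libraries, where 87.8% to 97.1% of the fragments of a copy matched that copy best, and less in MEF (81.4% to 90.0%), whose fragments are short (a median of 38 nt against 60 nt in ES-1) and tie between Snora73a and Snora73b in 16.6% and 16%. Fragments that tie or match another copy better are split between copies in a way that cannot be settled.

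No difference between Snora73a and Snora73b in the kinds of RNA they were joined to passed the test. Of 40 comparisons of a partner class in a library, by two-sided Fisher's exact test, 0 (0%) passed an adjusted p of 0.05. An unadjusted p under 0.05 was found for 5, and the lowest adjusted p was 0.126, for ribosomal RNA in ES-1 (72% of Snora73a and 70.9% of Snora73b pairs, log2 odds ratio 0.07 ± 0.02). In ES-2 the lowest was for repeats (5.82% against 6.90%, log2 odds ratio -0.26 ± 0.1, adjusted exact p = 0.134). Over fragments that matched 1 copy best, 0 passed as well, over all lines 5 passed, and over pairs that match their position 1 passed, ribosomal RNA in ES-1 (adjusted exact p = 0.00776).

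SNORA73 of chromosome 9 stood apart from the chromosome 4 copies in where it was joined to 18S. Bases 1501 to 1600 held 12.1% of its 18S fragments in ES-1 (10.7 to 13.7, 216 of 1778), against 4.76% of those of Snora73a and 4.90% of those of Snora73b. In ES-2 they held 32.3% (27.9 to 36.9, 133 of 412) against 11.3% and 8.84%. The fragments had 189 and 121 different spans, so the fragments were spread over many coordinates. In ES indirect and MEF, SNORA73 had 1 fragment of 33 and 1 of 22 there, against 7.94% and 12.5%, and 7.14% and 9.23%, for the other copies. At bases 401 to 500 the order was the other way round in ES-1 (9.45% against 14.2% and 13.9%) and in ES-2 (9.22% against 15.1% and 16.2%), but not in ES indirect (36.4% of 33 against 25.4% and 14.6%). At bases 101 to 200 SNORA73 had 7.87% against 13.3% and 13.7% in ES-1, and 3.16% against 6.03% and 7.23% in ES-2. These windows were chosen after seeing the values, so they are given without a test. The lower value of the whole family at bases 1501 to 1600 in ES-1 and the higher one in ES-2 (5.64% against 6.14%, adjusted exact p = 0.0434, and 13.3% against 11.1%, adjusted exact p = 0.00486) are values over all 3 copies.

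**Figure D5:**
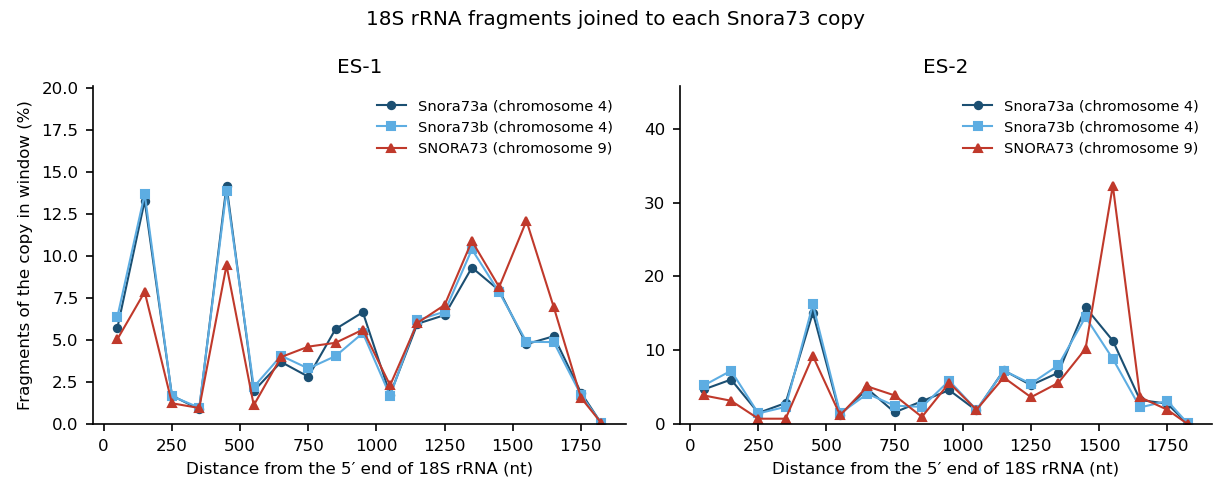
Share of the 18S fragments of each copy (vertical axis, percent) in windows of 100 nt along 18S rRNA (horizontal axis, nt from the 5′ end) in ES-1 and ES-2. SNORA73 of chromosome 9 stands above Snora73a and Snora73b at bases 1501 to 1600 (12.1% and 32.3%) and below them at 401 to 500. Snora73a and Snora73b lie nearer to each other in these windows. At bases 801 to 900 in ES-1 they are apart (5.66% against 4.05%), which was not tested.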

How the data were processed

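The deposited files hold 1 line for each read pair left after the authors had counted pairs with the same mapped places and random barcode as 1, split each molecule at the linker and kept uniquely placed fragments. Their values are coordinates, strands, sequences and names, with no normalized unit, and every count used here was made from those lines. The submitters' processing notes name TopHat2 2.1.1 and the builds mm9 and NCBIM37. Of the 6 samples, 4 were used, grouped by their labels.

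Lines with equal coordinates were counted as 1, so values describe distinct pairs of coordinates and not read depth. Such lines can differ in their random barcode, so separate ligations at the same coordinates may be counted as 1. A sequence was held to match its position with at most 15% mismatches, to carry linker with 10 linker bases in a row, and to be like ribosomal or small RNA where at least 50% of its 14-mers were found there. RNAs within 2 kb were treated as 1. Small subunit fragments were placed on 18S with at most 10% edits. Pairs of RNAs were tested by one-sided and shares by two-sided Fisher's exact test, with Benjamini-Hochberg adjustment and a threshold of 0.05. Intervals are 95% Wilson intervals. Near duplicates are pairs within 5 nt at all 4 fragment ends. The pair test was tried on simulated data, where it recovered strongly enriched pairs and few weakly enriched ones. The enriched pairs were of frequent RNAs, so the recovery does not cover the small predicted counts of most called mRNAs. The test also called many pairs that had not been enriched (76, 90, 111 and 58), more than the threshold stands for. A call on few pairs is therefore uncertain. Named partners were drawn from the 30 called partners with the most pairs, the 20 mRNAs in the most libraries, the 10 small RNAs with the most pairs, host genes and list members. The mRNA rule was applied again to fragments that passed the sequence criteria, and further names (Hps4, Pecam1, Wdr75 and other called partners with few pairs) were chosen after their values were seen. The members, lists and tests were chosen with earlier results of these data known, and the 18S windows, one-sequence pairs and rRNA-like filter after seeing the data. Python 3.11.15, pandas 2.3.3, numpy 2.4.6, scipy 1.17.1, edlib 1.3.9.post1, ViennaRNA 2.7.2 and matplotlib 3.10.9 were used. Results for some genes, and the list of cholesterol trafficking genes, are not reported here.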

Additional observations from a re-analysis of the deposited data

How the results depend on the processing

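No paired analysis was possible because ES and brain are the groups whose labels share replicate numbers, brain was not analysed here, and the other groups have 1 library each. Over 354 recomputed values, 284 held: tested values kept their direction and side of the threshold, shares stayed within 1 SD (ES) or the 95% interval, and counts stayed within 1.5 times. By the last allowance 1001 mRNAs in at least 2 libraries against 678, or 58 called partners in ES-1 against 39, still held. The small subunit share against other H/ACA snoRNAs kept both in all 35 recomputed values, and the window of bases 101 to 200 of 18S in 27 of 27. The window of bases 401 to 500 did so in 26 of 27, with 0.92 in ES indirect on the second flow cell alone. The causes of the changes below were not tested.

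The ribosomal share (ES mean, ES indirect, MEF) was 72.6%, 60.5% and 58.3% with fragments of at least 20 nt and no linker piece, and 74.3%, 59.3% and 52.7% where sequences match their position. Without rRNA-like partners it was 72.8% in ES and 34.7% in MEF. Further MEF values were 35.1% with near duplicates counted as 1, 33.9% without one-sequence pairs, 33.9% on the first flow cell and 0% on the second. The self-joined share was 3.78% in ES and 68.0% in ES indirect over every line, and 2.07% and 21.5% with near duplicates counted as 1. With fragments of at least 20 nt it was 3.45%, 36.9% and, in MEF, 6.08%. Where sequences match their position it was 35.9% in ES indirect and 5.80% in MEF, and MEF gave 2.15% on the snoRNA strand and 1.22% without one-sequence pairs.

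For the joined position, as a log2 odds ratio, ES-1 RNA1 ends gave 0.04 with near duplicates counted as 1 and -0.13 on the second flow cell. RNA2 ends gave 0.19 in ES-2 and 0.01 in ES indirect with near duplicates counted as 1, and -0.05 and -0.61 divided at the H box. MEF RNA1 ends gave 0.05 without one-sequence pairs. MEF RNA2 ends gave 1.49 over every line, 0.96 with at least 20 nt, 1.08 at matching positions, 0.81 divided at the H box, 0.30 without one-sequence pairs, 0.24 at the middle of the fragment, 0.16 with near duplicates counted as 1, -0.19 on the snoRNA strand, -0.19 on the first flow cell and -4.56 on the second. ES-2 RNA1 ends gave -0.05 over every line.

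Classes that differed between copies a and b numbered 5 over every line and 1 at matching positions. The mRNAs in at least 2 libraries numbered 526 with at least 20 nt, 439 at matching positions, 255 as sense exon fragments, 205 without ES-1 and 309 without ES-2. Called partners over every line numbered 489, 42, 14, 22 and 438 (ES-1, ES-2, then ES indirect, MEF, and ES merged). With at least 2 pairs they numbered 109, 49, 9, 26 and 105. With at least 20 nt ES-2 had 16, ES indirect 2 and MEF 4, and at matching positions 14, 2 and 4. Without rRNA-like partners ES indirect had 2. Without ES-1, ES merged had 26, and without ES-2 it had 58.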
